A study of Camellia sinensis with 6 samples.

Results

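Basic helix-loop-helix (bHLH) transcription factors of the tea plant, Camellia sinensis, were followed in young shoots that were green in the warm or had yellowed in the cold. Members were the gene models whose deposited description names the helix-loop-helix DNA-binding domain PF00010, which gave 134 of 40118 gene models. The rule used annotation only and no expression value, but it was chosen with earlier results of these data known. The transcription factor family column of the deposited table marked the same 134 gene models as HLH.

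All shoots came from the cultivar 'Zhonghuang 2', whose new leaves turn yellow in the cold. After 1 month at 22 °C, the high-temperature (control) plants were kept in a chamber with days at 26 °C and nights at 22 °C. The low-temperature plants had a chamber of their own with days at 18 °C and nights at 14 °C, and both chambers alternated 12 h of light with 12 h of darkness. Shoots were collected when the leaves in the cold were yellow, and RNA sequencing gave 3 libraries for each temperature. The labels name no genetic change or added agent in either group. Chamber and temperature cannot be told apart, and the labels do not state whether separate plants stand behind the libraries, so the p-values reflect library-to-library spread, which may be only technical.

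A bHLH protein dimerises through its helix-loop-helix and binds E-box DNA with the basic stretch before it, so the partner present decides which genes are bound. In plants the family includes the phytochrome-interacting factors, which act in light and temperature responses, the MYC factors of jasmonate signalling, and regulators of iron uptake, anthocyanin colour, brassinosteroid growth, stomata and root hairs. Some atypical members lack a working basic stretch and hold their partners off DNA. Roles given below are those known in Arabidopsis unless another species is named, and the deposited tables name each gene model only by its likeness to such proteins.

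The libraries held 15202546 to 15642015 counts, of which bHLH members took 0.228% to 0.272%. CPM values, the counts brought to a common library size with edgeR's TMM factors, are used to compare libraries, and deposited FPKM values to compare genes. A count of 3, the floor used here, was 0.180 to 0.204 CPM, a limit that covers counting error only. High-temperature replicate 2 stood apart from the other high-temperature libraries, and 50 of the 106 tested members (47.2%) were higher in it than in both of them, against 40.1% of all tested gene models. The summed level of 25 leaf mesophyll genes (antenna proteins and Rubisco small chains) was 49150, 36130 and 49250 CPM in replicates 1 to 3 of the warm group and 31190, 30210 and 30590 CPM in those of the cold group. Of 23 tested mesophyll genes 14 were called lower and 1 higher, a Rubisco small chain (Cha01g021230) at 1748 ± 85.0 CPM in the warm and 3132 ± 302 CPM in the cold (SD, n = 3), and 1 antenna gene (Cha07g009140) held 14060 CPM of the warm sum on average. Several of the lower calls were lost with 1 library left out. That of Cha07g009140 was lost without high-temperature replicates 1 (edgeR adjusted p = 0.0535) or 3 (0.0739) or low-temperature replicates 2 (0.0878) or 3 (0.085). The summed markers moved with the temperature groups, and their part in the bHLH results was not tested. In such bulk samples, fewer cells of a type and less RNA per cell cannot be told apart. Markers of pollen and anther cells gave summed levels of 48.5 to 62.4 CPM at high and 59.3 to 60.0 CPM at low temperature. Nearly all of that sum was 1 gene, DEFECTIVE IN EXINE FORMATION 1 (Cha04g021360), at means of 55.1 and 59.7 CPM. The pollen marker LAT52 was at or near 0.

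Of the 134 members, 106 had enough counts to be tested and 28 did not. More members fell than rose in the yellowed shoots: 20 were lower and 9 higher with adjusted p < 0.05 in edgeR's quasi-likelihood F test (Benjamini-Hochberg over all 26767 tested gene models). Called members thus made up 27.4% of those tested, against 18.9% of all tested gene models. Lower calls were 18.9% of the tested members against 9.65% of all tested gene models, and higher calls were 8.49% against 9.27%. The shares over all tested gene models, 9.65% lower and 9.27% higher, are the reference for every role group and gene list in this report. No group or list was tested as a set, and several counts, such as 1 fall among 8 tested jasmonate members, lie near those shares. At an adjusted p under 0.01 the members called were 17 (16.0%, against 9.05% of all tested gene models), of which 14 were lower and 3 higher. Warm and cold libraries did not overlap in 52 members (49.1%), 36 lower and 16 higher at low temperature, and in 36.5% of all tested gene models. Some members below, such as BPE Cha12g008420 and ICE1 Cha01g025450, were named only by a rule that requires no overlap. For these the lack of overlap follows from the choice.

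Most of the called changes were small. Of 29 called members 20 changed by less than 2-fold, 8 fell by at least 2-fold (7.55% of tested members, against 3.03% of all) and 1 rose by at least 2-fold (0.943% against 1.76%). The median log2 change over the tested members was -0.26, with quartiles of -0.51 and 0.17, and over all tested gene models it was -0.01, with quartiles of -0.35 and 0.32. Without high-temperature replicate 2 the members' median was -0.13 and that of all tested gene models 0.004, and 32 members were called, 21 lower and 11 higher (29.9% of tested members, against 20.6% of all tested gene models). The members called numbered 18 when low-temperature replicate 2 was left out (16.5% against 9.44%) and 17 when replicate 3 was (15.5% against 9.70%). The summed level of all members was 2484, 2484 and 2578 CPM at high and 2369, 2379 and 2329 CPM at low temperature, so that the low-temperature sums were all below the high-temperature ones by a small margin.

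**Figure D1:**
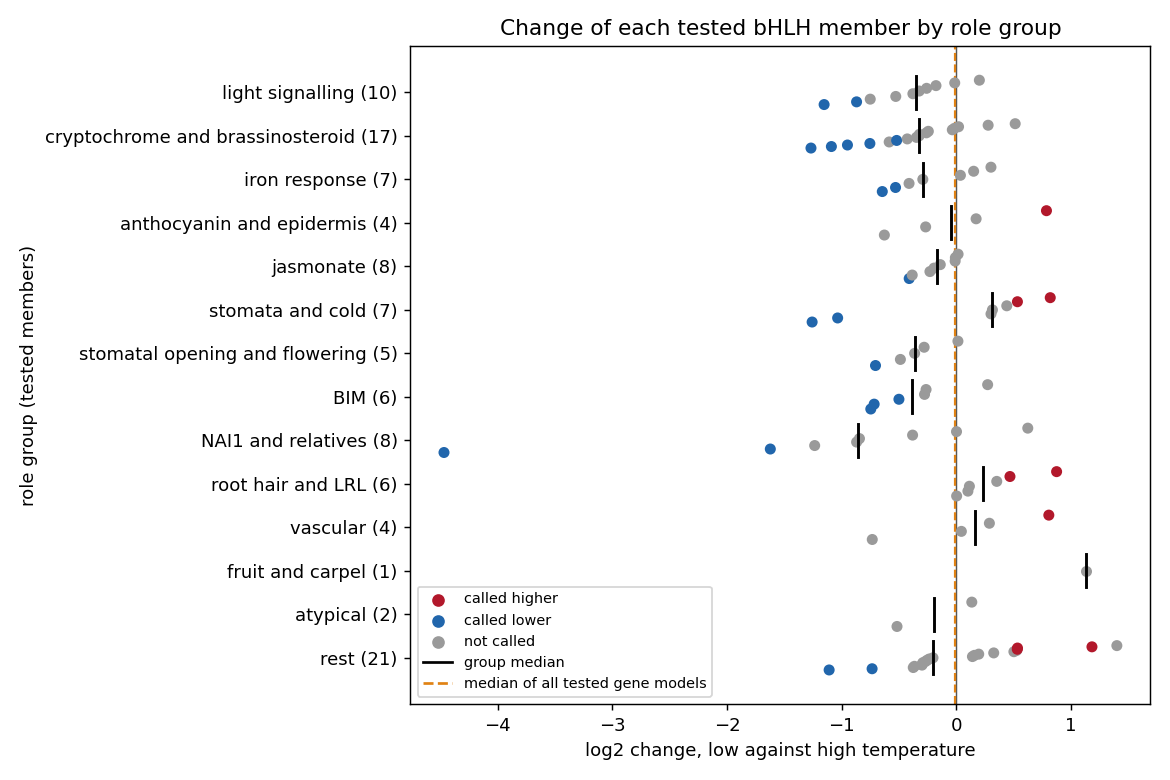
Log2 change, low against high temperature, of each of the 106 tested bHLH members, set out by role group with the number tested in parentheses. Each point is a member, black bars are group medians and the dashed line is the median of all tested gene models, -0.01. Blue points are the 20 called lower, 5 of them in the cryptochrome and brassinosteroid group, 3 in the BIM group and 1 or 2 in each of 7 others, and red points are the 9 called higher.

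Light signalling members are the phytochrome-interacting factors (PIFs) and their close relatives, which phytochrome, the red-light receptor, turns off in the light. Of 10 members, all tested, 2 fell, none rose and 9 had a negative log2 change, with a median of -0.35. The largest fall was in a gene model named PIF7 (Cha03g011080, sequence 3, 119616505 to 119622691, minus strand), a factor that promotes stem growth in shade and warmth. It stood at 11.4, 14.6 and 8.48 CPM in the warm, replicates 1 to 3 in turn, and at 4.14, 6.26 and 5.12 CPM in the cold. The groups did not overlap, and PIF7 fell 2.23-fold (log2 change -1.15 ± 0.24 SE, adjusted p = 0.00317).

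SPATULA (Cha04g003560), which shapes the carpel margin and restrains leaf growth, measured 18.7, 17.0 and 20.2 CPM at high and 10.2, 8.44 and 11.9 CPM at low temperature. Every low-temperature library was below every high-temperature one, a 1.83-fold fall (log2 change -0.87 ± 0.18, adjusted p = 0.00296). The other 2 SPATULA gene models, Cha01g019510 and Cha03g016900, were not called (log2 changes -0.18 and -0.38, edgeR adjusted p = 0.628 and 0.434). The other named PIFs did not pass the test. A PIF1 gene model (Cha11g009770) had a log2 change of -0.53 ± 0.31 (adjusted p = 0.257), and PIF3 gene models had -0.75 ± 0.32 (Cha06g002690, adjusted p = 0.108) and -0.01 ± 0.15 (Cha02g011370, adjusted p = 0.96). The latter was the most abundant light signalling member by CPM, at 35.2 to 49.1 CPM in the warm and 37.7 to 45.6 CPM in the cold. A further PIF7 gene model (Cha15g003060) measured 7.0, 8.82 and 7.43 CPM against 7.14, 5.43 and 6.87 CPM, which overlap (log2 change -0.26 ± 0.22, adjusted p = 0.459).

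Among photoreceptors and the proteins between them and the PIFs, few passed the test. None of 7 tested phytochrome gene models and none of 10 tested DELLA gene models, the growth repressors that bind PIFs, was called. The phytochrome with the smallest p, Phytochrome E (Cha07g009340), had a log2 change of -0.43 ± 0.16 (adjusted p = 0.0661), and the DELLA with the smallest p had an adjusted p of 0.256. Among 14 tested gene models for COP1, SPA proteins and HY5, 1 fell and none rose. It was HY5 (Cha12g007340), a bZIP factor that promotes greening and shares DNA sites with PIFs, at 52.7, 45.0 and 50.7 CPM in the warm and 32.3, 28.4 and 25.3 CPM in the cold. HY5 levels did not overlap between the groups and fell 1.72-fold (log2 change -0.79 ± 0.14, adjusted p = 0.001).

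Cryptochrome and brassinosteroid members, which include partners of the blue-light receptor cryptochrome and factors induced by the growth hormone brassinosteroid, numbered 20, with 17 tested. In this group, which also takes in bHLH48 and BPE, 5 members fell, none rose, and the median log2 change was -0.33. The falls were in bHLH63, BEE 2, both bHLH48 gene models and 1 of 2 BPE gene models. The member with the smallest p was bHLH63 (Cha02g017350), which in Arabidopsis binds cryptochrome in blue light and promotes flowering. Its levels were 47.9, 49.3 and 54.8 CPM at high and 28.2, 24.4 and 26.1 CPM at low temperature, with a clear gap between the groups (log2 change -0.95 ± 0.14, adjusted p = 0.000154). The receptor lists held 3 cryptochromes, of which 1 fell, Cryptochrome-1 (Cha04g006030), from 22.5 ± 3.09 to 14.5 ± 1.16 CPM (SD, n = 3; log2 change -0.64 ± 0.17, edgeR adjusted p = 0.0118). Leaving out high-temperature replicate 3 (adjusted p = 0.0537) or low-temperature replicate 2 (0.0604) ended that call. This gene model was the least abundant of the 3 by CPM. The other Cryptochrome-1 (Cha09g005260) averaged 71.81 CPM in the warm and 82.25 CPM in the cold, and Cryptochrome-2 (Cha05g003840) 35.03 and 44.66 CPM. Both were higher without overlap but not called (log2 changes 0.196 and 0.35, edgeR adjusted p = 0.287 and 0.0731). The 3 together summed to 129.4 ± 3.576 CPM at high and 141.4 ± 4.719 CPM at low temperature (SD, n = 3).

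Both gene models named bHLH48, which in Arabidopsis promotes flowering together with gibberellin signalling, fell. The first (Cha10g000840) measured 71.6, 77.2 and 62.8 CPM in the warm and 39.6, 44.4 and 41.4 CPM in the cold, a 1.69-fold fall (log2 change -0.75 ± 0.13, adjusted p = 0.000777). The second (Cha13g000480), with the highest mean CPM of the group, measured 63.5, 66.7 and 73.9 CPM against 48.8, 47.6 and 46.0 CPM. Neither gene model overlapped between the groups. The second fell 1.44-fold (adjusted p = 0.0081), a call lost without high-temperature replicate 3 or low-temperature replicate 3 (adjusted p = 0.0566 in each case).

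BPE (Cha12g008420), which limits petal cell size, fell the most in this group. It measured 8.97, 7.50 and 11.4 CPM at high and 4.40, 3.83 and 3.31 CPM at low temperature, with no overlap (2.41-fold, log2 change -1.27 ± 0.24, adjusted p = 0.00167). BEE 2 (Cha03g015850), an early brassinosteroid-response factor named here after its values were seen, measured 7.68, 8.88 and 5.92 CPM against 3.80, 3.71 and 3.05 CPM. It too was lower in every cold library (2.13-fold, log2 change -1.09 ± 0.26, adjusted p = 0.00657). A second BPE gene model (Cha06g017250) was not called (log2 change -0.35, edgeR adjusted p = 0.243). The untested members were BEE 1, BEE 3 and bHLH75, with 43, 6 and 0 counts over the 6 libraries.

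BIM proteins bind DNA with BES1, the main brassinosteroid-responsive factor. Of 6 members, all tested, 3 fell, none rose and the median was -0.39. BIM1 (Cha03g011660) stood at 16.6, 20.8 and 20.2 CPM in the warm and 10.7, 11.6 and 12.1 CPM in the cold, with no overlap (1.68-fold lower, log2 change -0.75 ± 0.17, adjusted p = 0.00536). A second BIM1 gene model was not called and lay on the other side of 0, with a log2 change of 0.27. The FPKM ratio of the first BIM1 to the second was 1.67, 1.79 and 1.70 at high and 0.913, 0.903 and 0.759 at low temperature. The first was thus the more abundant per length in each green sample and the less abundant in each yellowed one. This ratio, chosen after the values were seen, was not tested.

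BIM2 had 3 gene models, all with negative changes. One (Cha12g009870) measured 10.9, 9.0 and 7.63 CPM against 4.80, 6.26 and 5.64 CPM, with no overlap (log2 change -0.72 ± 0.23, adjusted p = 0.0337). This call was lost without high-temperature replicate 1 or any low-temperature replicate, with adjusted p-values of 0.128, 0.113, 0.0702 and 0.102. Another BIM2 (Cha01g022090, named after its values were seen) had a log2 change of -0.50 ± 0.17 (adjusted p = 0.0463) and was called only in some settings: without high-temperature replicates 1 or 3 or low-temperature replicates 1, 2 or 3 the adjusted p was 0.145, 0.103, 0.133, 0.154 and 0.0786. The third (Cha06g018250), the group's most abundant member by CPM, had -0.26 ± 0.17 (adjusted p = 0.294).

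Iron-response members are factors that regulate genes in the response to low iron, among them genes of iron uptake. Of 8 members 7 were tested, 2 fell and none rose, with a median of -0.29. The gene model bHLH121 (Cha06g001130), which acts near the top of the iron response, measured 33.4, 38.9 and 32.0 CPM in the warm and 22.3, 20.5 and 23.9 CPM in the cold. The groups were apart, and it fell 1.56-fold (log2 change -0.65 ± 0.15, adjusted p = 0.00516). Its dimer partner bHLH104 (Cha05g003740) measured 49.3, 48.7 and 59.2 CPM against 40.5, 37.0 and 31.4 CPM, also without overlap (1.45-fold lower, log2 change -0.53 ± 0.14, adjusted p = 0.0148). The bHLH104 call was lost without high-temperature replicate 3 (adjusted p = 0.0936), low-temperature replicate 2 (0.0644) or low-temperature replicate 3 (0.112). A second bHLH121 (Cha03g015350) had a log2 change of 0.04 ± 0.27 (adjusted p = 0.946), of which the sign turned in several alternatives.

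ILR3, a further iron-response regulator of the bHLH104 type, had 4 gene models, none called, and included the most abundant bHLH member per length. That gene model (Cha08g016140, sequence 8, 139709720 to 139713529, plus strand) had a mean of 186 FPKM, and measured 121, 115 and 125 CPM in the warm and 154, 153 and 139 CPM in the cold. Its groups did not overlap, yet the log2 change of 0.30 ± 0.13 did not pass the test (adjusted p = 0.108). A second ILR3 (Cha05g013780) measured 124, 88.2 and 121 CPM against 93.8, 76.5 and 79.6 CPM, which overlap (log2 change -0.41 ± 0.15, adjusted p = 0.06). Without high-temperature replicate 2 the adjusted p of this second gene model was 0.00104.

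Summed over its 4 gene models, ILR3 stood at 277 ± 27.8 CPM in the warm and 278 ± 16.9 CPM in the cold (SD, n = 3), a difference far inside the spread. The mix within that sum differed: the FPKM ratio of the first ILR3 to the second was 0.966, 1.29 and 1.02 at high and 1.62, 1.98 and 1.73 at low temperature. No value of the ratio overlapped between the groups. It was chosen after the values were seen and was not tested. FIT, the root factor that drives iron uptake genes, had 2 counts in all, both in low-temperature replicate 3.

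Of 16 tested genes for iron uptake, transport and storage, a list of targets of these factors, 3 rose, 2 fell and the median was -0.05. Nicotianamine synthase (Cha02g010480), which makes the metal chelator that moves iron between cells, measured 4.08, 3.42 and 5.46 CPM in the warm and 56.7, 45.1 and 25.9 CPM in the cold. The lowest cold library was well above the highest warm one, and the rise was 9.86-fold (log2 change 3.30 ± 0.28, adjusted p = 9.58e-06). Ferritin-1 (Cha04g022120), the plastid iron store, fell from 11.3 ± 2.33 to 4.98 ± 1.26 CPM (SD, n = 3; log2 change -1.18 ± 0.24, edgeR adjusted p = 0.00244). The remaining calls were a second nicotianamine synthase and an oligopeptide transporter 3 that were higher, and a BRUTUS-like zinc finger gene that was lower. Leaving out a single library ended each of these calls. For the second nicotianamine synthase (Cha06g002370) high-temperature replicates 1, 2 and 3 did so (adjusted p = 0.101, 0.131 and 0.0871), and for the transporter (ChaUn3752.18) low-temperature replicate 3 did (0.0955). For the BRUTUS-like gene (Cha15g004320) they were high-temperature replicate 2 (0.142) and low-temperature replicates 1, 2 and 3 (0.0702, 0.181 and 0.0921).

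**Figure D2:**
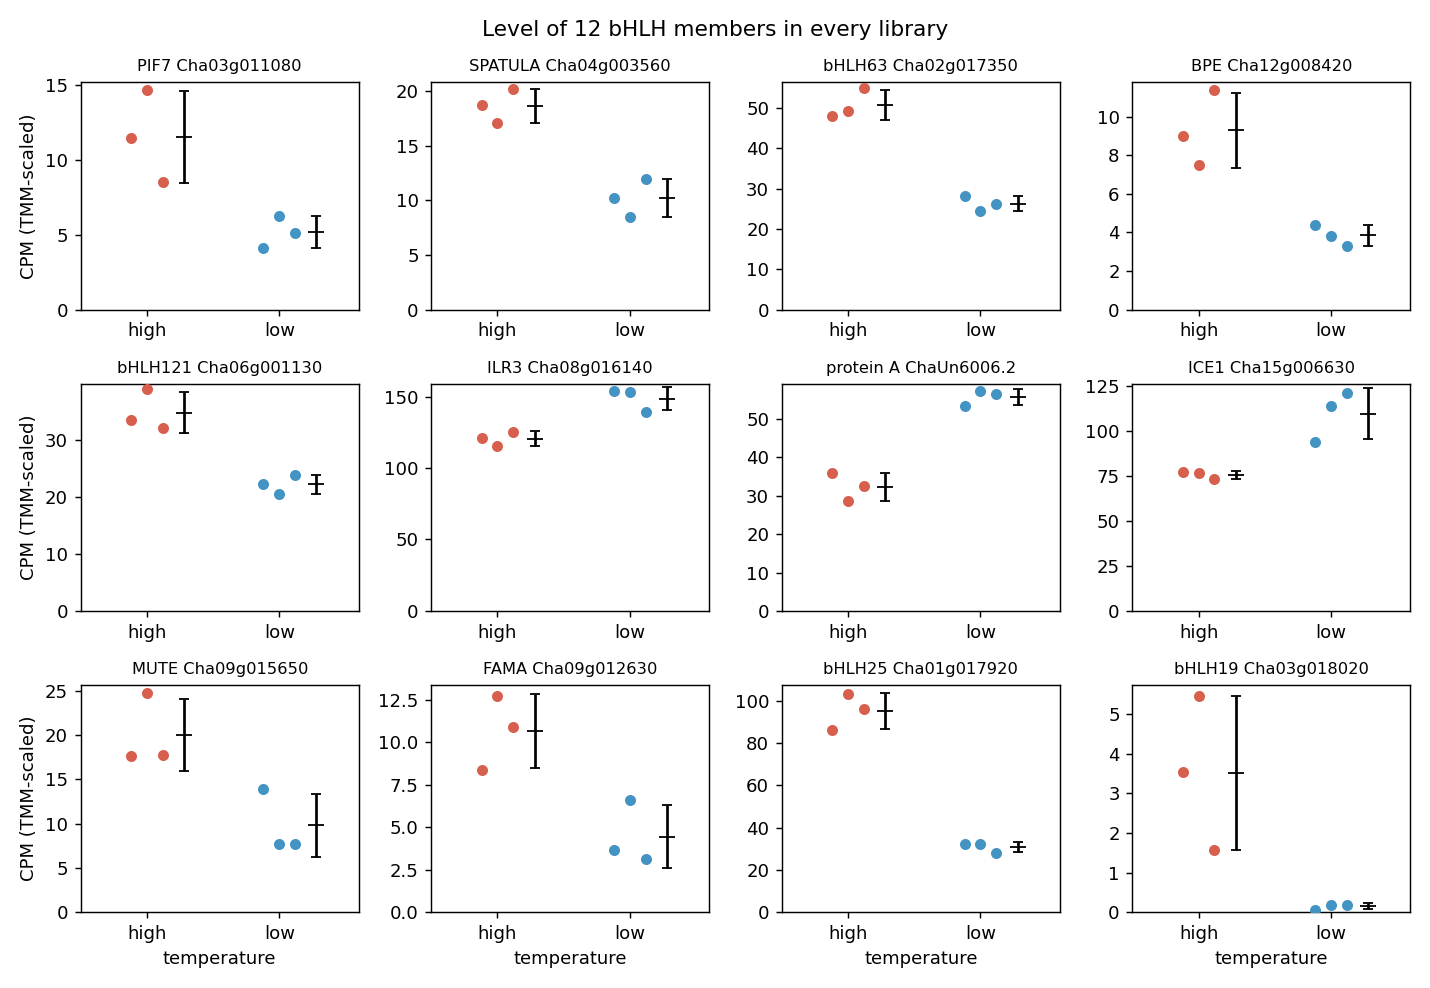
Level of 12 bHLH members in each library, in TMM-scaled CPM from 0 on a linear axis. Points are libraries, replicates 1 to 3 from left to right, and the bar beside them is the mean ± SD (n = 3). The 12 were picked from the named members, some of which were named by a rule that requires no overlap. That the groups do not overlap in any panel therefore follows in part from the choice, and ILR3 did not pass the test. Groups did not overlap in 49.1% of tested members and 36.5% of all tested gene models.

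Anthocyanin and epidermis members join MYB and WD40 proteins in the complex that switches on the late steps of anthocyanin synthesis and the making of leaf hairs. Of 4 members, all tested, 1 rose and none fell. It was named for basic helix-loop-helix protein A of pea, the factor behind purple pea flowers. This gene model (ChaUn6006.2) measured 35.9, 28.6 and 32.6 CPM in the warm and 53.5, 57.3 and 56.5 CPM in the cold. The groups were well apart (1.72-fold higher, log2 change 0.79 ± 0.14, adjusted p = 0.000718). A second protein A gene model (Cha11g011440) was more abundant, at 223, 155 and 265 CPM in the warm and 257, 219 and 249 CPM in the cold, and overlapped between the groups (log2 change 0.17 ± 0.17, adjusted p = 0.533). A GLABRA 3 gene model (Cha12g001590), named for the leaf-hair regulator, had a log2 change of -0.63 ± 0.32 (adjusted p = 0.185), and without low-temperature replicate 1 its adjusted p was 0.0311. GLABRA 3 gene models without the domain PF00010 are no members of this group, and their falls are given below.

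MYB75, a MYB partner of these factors, fell. Of 7 tested gene models for TTG1 and anthocyanin MYB factors 3 fell and none rose. MYB75 (Cha01g017900), which turns on anthocyanin genes, measured 36.7, 32.9 and 37.3 CPM in the warm and 2.67, 4.22 and 1.94 CPM in the cold, with no overlap (log2 change -3.59 ± 0.22, adjusted p = 1.77e-08). The other calls were lost with 1 library left out. For Cha14g006440, named anthocyanin regulatory C1 protein, these were high-temperature replicate 3 (0.0777) and low-temperature replicates 2 (0.118) and 3 (0.0887). For another MYB75 (Cha03g018100) it was low-temperature replicate 1 (0.0595). The list of late anthocyanin enzymes also took in anthocyanidin reductase and GSTF12 (Cha03g014090), which carries the pigment to the vacuole. Of 14 tested genes on it 3 fell and none rose, with a median of -0.02. GSTF12 had the smallest p (log2 change -6.08 ± 0.18, adjusted p = 1.84e-13). An anthocyanidin reductase (Cha07g006420) fell from 224 ± 5.61 to 143 ± 7.065 CPM (SD, n = 3; log2 change -0.65 ± 0.13, edgeR adjusted p = 0.00221). A more abundant anthocyanidin reductase (Cha07g013180) was not called (edgeR adjusted p = 0.222). The call of a dihydroflavonol 4-reductase (Cha04g001890) was lost without high-temperature replicates 1 (0.128) or 2 (0.0539). It was also lost without low-temperature replicates 1 (0.0862), 2 (0.154) or 3 (0.0959).

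Jasmonate members are MYC2, its relatives that turn defence genes on, and the related bHLH3, bHLH13 and bHLH14 that hold them back. Of 11 members 8 were tested, 1 fell and none rose, with a median of -0.17. A MYC2 gene model (Cha06g009120) measured 54.7, 50.9 and 46.0 CPM against 39.0, 42.4 and 32.5 CPM. The groups did not overlap, but the difference was small, and its call was kept in 6 of 17 fits, as few as for BIM2 Cha01g022090 (1.33-fold lower, log2 change -0.41 ± 0.14, adjusted p = 0.0493). Over the alternatives its adjusted p ran from 0.0365 to 0.258, and it was lost without high-temperature replicates 1 (0.147) or 3 (0.0682) or low-temperature replicates 1 (0.0871), 2 (0.0741) or 3 (0.258). MYC4 (Cha02g000180), the most abundant by CPM, had a log2 change of -0.39 ± 0.16 (adjusted p = 0.106), and leaving out high-temperature replicate 2 gave 0.00823. None of 9 tested TIFY (JAZ) genes, the repressors that bind MYC factors, was called; TIFY 6B (Cha06g014660) had the smallest p (log2 change -0.45 ± 0.16, adjusted p = 0.0568), and without high-temperature replicate 2 its adjusted p was 0.000428.

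Stomata and cold members moved in both directions. SPEECHLESS starts the stomatal lineage, MUTE ends its divisions and FAMA sets guard cell fate, each as a dimer with ICE1, which also switches on cold-response genes. Of 7 members, all tested, 2 ICE1 gene models rose, MUTE and FAMA fell, and both SPEECHLESS gene models and the remaining ICE1 did not pass the test. MUTE (Cha09g015650, sequence 9, 139358851 to 139360996, plus strand) measured 17.7, 24.7 and 17.8 CPM in the warm and 13.9, 7.73 and 7.71 CPM in the cold, with no overlap (2.05-fold lower, log2 change -1.04 ± 0.23, adjusted p = 0.00469). FAMA (Cha09g012630, sequence 9, 119054113 to 119055958, minus strand) measured 8.36, 12.7 and 10.9 CPM against 3.67, 6.58 and 3.11 CPM. It was lower in every cold library (2.39-fold, log2 change -1.26 ± 0.27, adjusted p = 0.004).

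SPEECHLESS had 2 gene models, named here after their values were seen, with log2 changes of 0.30 and 0.44 and adjusted p-values of 0.288 and 0.186. Within each library, the FPKM of MUTE and FAMA together divided by that of the SPEECHLESS gene models was 1.85, 2.40 and 2.46 at high and 0.991, 0.829 and 0.626 at low temperature. Late-lineage factors thus exceeded the early factor per length in the green shoots and not in the yellowed ones. The ratio was chosen after the values were seen and was not tested. Of 7 tested stomatal lineage markers 2 were lower and none higher, and none was at 0 in all libraries. Their summed level was 223, 212 and 211 CPM in the warm and 193, 198 and 224 CPM in the cold, which overlap. The called markers were 1 of 4 loci named EPF2, a secreted signal of early lineage cells, and POLAR. That EPF2 locus, which lies outside the numbered gene models, went from 6.90 ± 0.791 to 1.74 ± 0.391 CPM (SD, n = 3; log2 change -1.99 ± 0.30, edgeR adjusted p = 0.000205). The most abundant EPF2 (Cha09g004880) stood at 60.0 ± 1.28 CPM in the warm and 51.4 ± 5.33 CPM in the cold (SD, n = 3) and was not called (edgeR adjusted p = 0.252), nor were the other loci of that name. POLAR (ChaUn6966.3) had a log2 change of -0.51 ± 0.16 (adjusted p = 0.0281). The call of POLAR was lost without high-temperature replicate 2 (0.0603), low-temperature replicate 2 (0.15) or low-temperature replicate 3 (0.0914). Of 20 tested markers of dividing cells 1 was higher and 2 were lower, and their sum was 1017, 1063 and 999.5 CPM in the warm and 926, 868 and 896 CPM in the cold, without overlap. Of the lower calls, that of Cyclin-B1-2 (Cha03g018610) was lost without high-temperature replicate 1 (0.0506) or low-temperature replicates 2 (0.119) or 3 (0.0852). The part of these markers in the MUTE and FAMA results was not tested.

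The most abundant ICE1 gene model (Cha15g006630) measured 77.2, 76.8 and 73.0 CPM in the warm and 93.6, 114 and 121 CPM in the cold. The groups did not overlap, and low-temperature replicate 1 lay nearest to the warm libraries (1.45-fold higher, log2 change 0.53 ± 0.13, adjusted p = 0.00933). That call was lost without high-temperature replicate 3 (adjusted p = 0.052), low-temperature replicate 2 (0.0556) or low-temperature replicate 3 (0.0764). A second ICE1 (Cha01g025450) measured 11, 9.30 and 11 CPM against 14.0, 18.8 and 22.4 CPM, again without overlap (1.76-fold higher, log2 change 0.82 ± 0.19, adjusted p = 0.00669), a call lost without low-temperature replicate 3 (0.0667). Summed over its 3 gene models ICE1 stood at 156 ± 2.87 CPM in the warm and 214 ± 26.8 CPM in the cold (SD, n = 3).

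CBF/DREB1 factors, the cold-response regulators that ICE1 activates, were listed by 8 gene models, of which the 2 tested both rose. The first (Cha01g008410) measured 10.1, 3.54 and 8.88 CPM in the warm and 16.8, 25.1 and 22.2 CPM in the cold, with no overlap (2.85-fold higher, log2 change 1.51 ± 0.31, adjusted p = 0.00563). The second (ChaUn7774.1) measured 0.272, 1.02 and 2.04 CPM against 3.47, 6.52 and 4.93 CPM and was also apart (log2 change 2.15 ± 0.48, adjusted p = 0.00576).

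Members of the stomatal opening and flowering group act on potassium channels of guard cells and on the flowering gene CONSTANS. Of 5 members, all tested, 1 fell and none rose, with a median of -0.36. It was a bHLH130 gene model (Cha06g005300), at 8.84, 10.6 and 7.43 CPM in the warm and 5.14, 6.58 and 4.73 CPM in the cold, with no overlap (1.63-fold lower, log2 change -0.71 ± 0.23, adjusted p = 0.0407). The call was lost without high-temperature replicates 1 (0.0719) or 2 (0.117) or low-temperature replicates 1 (0.113), 2 (0.0561) or 3 (0.169), and in every limma fit to FPKM. A more abundant bHLH130 (Cha02g006000) measured 23.8, 32.6 and 28.3 CPM against 18.7, 24.2 and 17.6 CPM, which overlap, with an adjusted p of 0.0512. That gene model passed the test under several settings, for example without high-temperature replicate 1 (0.0325) or low-temperature replicate 2 (0.046).

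Relatives of NAI1, a factor needed to form endoplasmic reticulum bodies in Arabidopsis, were present as 8 gene models named bHLH25 and 1 named bHLH19, and none was named NAI1. In Arabidopsis bHLH19 and bHLH25 bind FIT and lead to its breakdown under jasmonate. Of the 9 members 8 were tested, 2 fell, none rose and the median was -0.86, the lowest of the groups with more than 1 tested member. The gene model bHLH25 (Cha01g017920, sequence 1, 171684297 to 171693472, plus strand) had the smallest p of all members. It measured 86.2, 103 and 96.0 CPM in the warm and 32.1, 32.3 and 28.2 CPM in the cold. The groups were far apart, and it fell 3.08-fold (log2 change -1.62 ± 0.13, adjusted p = 4.78e-07), with adjusted p-values no higher than 0.00107 over all alternatives. It was the fourth most abundant member per length, at 118 FPKM, and was 1 of 8 gene models named bHLH25, among which reads may be split.

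A gene model without a protein name (Cha01g017930, sequence 1, 171683581 to 171684261, plus strand) ends 35 bases before that bHLH25 on the same strand. It measured 71.4, 89.2 and 84.2 CPM at high and 31.9, 25.3 and 26.2 CPM at low temperature, without overlap (log2 change -1.55 ± 0.14, adjusted p = 1.54e-06). Its change was near that of bHLH25, and whether both are pieces of 1 gene was not tested. The other fall of this group was in bHLH19 (Cha03g018020, sequence 3, 161244444 to 161248016, minus strand), which had 52, 91 and 24 counts in the warm and 1, 3 and 3 counts in the cold. The cold counts were at or under the floor and too few for a fold, while the groups did not overlap (adjusted p = 0.000123).

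This bHLH19 lies at the end of a run of 4 members within 295.9 kb of sequence 3, from 160952134 to 161248016, the other members of which are all named bHLH25. Those bHLH25 gene models had log2 changes of 0.62, -0.87 and 0.00, and none was called, with adjusted p-values of 0.625, 0.378 and 0.997. The fall that passed the test in this run was thus that of bHLH19. In all, 12 members sat in 4 such runs, with at most 1 gene model between neighbours. Another run of 4 members, none with a protein name, spans 593.8 kb of sequence 10 and had 0 to 67 counts per member in all 6 libraries together, with 1 member tested and not called.

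Root hair and LRL members include factors of root hair growth and UNE12, named for a mutant with unfertilised embryo sacs. Of 8 members 6 were tested, 2 rose, none fell and all 6 had a positive log2 change, with a median of 0.23. The risers were both named UNE12. One (Cha06g001940) measured 10.2, 5.28 and 8.48 CPM against 14.6, 16.1 and 13.1 CPM (1.83-fold higher, log2 change 0.87 ± 0.22, adjusted p = 0.0112). The other (ChaUn12188.5) measured 29.1, 26.6 and 24.7 CPM against 37.7, 35.9 and 37.5 CPM (1.38-fold higher, log2 change 0.47 ± 0.14, adjusted p = 0.0244). Neither overlapped between the groups. The first call was lost without low-temperature replicate 2 (0.068), and the second without high-temperature replicate 3 (0.109) or low-temperature replicates 1 (0.0541), 2 (0.0704) or 3 (0.0963). The first was also lost in the unfiltered limma fit to FPKM, and the second with library totals only. The most abundant UNE12 (Cha09g014890), with 136 FPKM, had a log2 change of 0.35 ± 0.14 (adjusted p = 0.0983). Among root markers 1 of 2 tested was higher, a Casparian strip membrane protein (Cha06g017890; log2 change 0.71, adjusted p = 0.00165). The summed root marker level was 114, 127 and 110 CPM in the warm and 166, 202 and 199 CPM in the cold, and its part in the UNE12 result was not tested. Nearly all of that sum was Cha06g017890, at means of 112 and 182 CPM. The untested root markers, Cha01g022890 and Cha04g017130, were at or near 0. Whether Cha06g017890 marks root cells in these young shoots was not tested.

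Vascular members all carry the name bHLH30, a relative of the factor that starts vascular cell division with LHW. Of 4 tested, 1 rose and none fell: Cha08g009740 measured 4.01, 4.32 and 2.96 CPM in the warm and 5.67, 6.14 and 7.97 CPM in the cold, without overlap (1.75-fold higher, log2 change 0.81 ± 0.27, adjusted p = 0.0405). The call was lost without high-temperature replicates 1 (0.0619) or 3 (0.139) or low-temperature replicates 1 (0.0521), 2 (0.0926) or 3 (0.205). The bHLH30 gene models Cha10g012310 (log2 change 0.29, adjusted p = 0.533), Cha06g019390 (0.04, adjusted p = 0.922) and Cha01g012710 (-0.73, adjusted p = 0.548) were not called. None of 6 tested vascular tissue markers was called, and their sum was 96.6 to 126 CPM in the warm and 125 to 141 CPM in the cold.

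The remaining groups were small or hardly measured. HEC2 (Cha04g003330), a carpel and fruit factor, was the only tested member of its group of 2 and had 0.197 to 1.84 CPM in the warm and 1.34 to 2.01 CPM in the cold (log2 change 1.13 ± 0.64, adjusted p = 0.238). Without high-temperature replicate 1 its adjusted p was 0.0161. Among the atypical members, both PRE6 gene models were tested and not called (Cha06g017500 with a log2 change of 0.13, the other with -0.52). A more abundant PRE6 locus without the domain PF00010 is no member, and its fall is given below. The anther members ABORTED MICROSPORES and bHLH10 had 27 and 48 counts over all libraries and were not tested.

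Outside these roles stood 36 members, 21 of them tested, of which 3 rose and 2 fell. All 3 risers were named bHLH94, and the other 2 gene models of that name were not called. The most abundant of them (Cha09g005670) measured 67.0, 65.7 and 70.0 CPM in the warm and 74.1, 115 and 104 CPM in the cold, without overlap (1.44-fold higher, log2 change 0.53 ± 0.15, adjusted p = 0.0194). Another (Cha02g009120) measured 23.4, 22.7 and 23.3 CPM against 32.4, 35.5 and 32.6 CPM, a narrow spread in each group (log2 change 0.53 ± 0.14, adjusted p = 0.0124). The third (Cha14g005040) was the only bHLH member that rose by at least 2-fold, at 2.99, 1.44 and 2.69 CPM against 4.47, 4.79 and 6.87 CPM (2.27-fold, log2 change 1.18 ± 0.33, adjusted p = 0.0178). Summed over its 5 gene models bHLH94 stood at 119 ± 4.09 CPM in the warm and 160 ± 24.6 CPM in the cold (SD, n = 3). The first call was lost without high-temperature replicates 1 (0.0527) or 3 (0.0541) or low-temperature replicates 2 (0.144) or 3 (0.0973), the second without low-temperature replicate 2 (0.07) and the third without low-temperature replicate 3 (0.125). The first was also lost in every limma fit to FPKM, and the third in the unfiltered one.

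The fall with the smallest p outside the named roles was in a member without a protein name (Cha08g010830, sequence 8, 109484443 to 109486450, plus strand). It measured 33.6, 42.4 and 31.8 CPM in the warm and 19.7, 17.6 and 12.7 CPM in the cold, without overlap (2.16-fold lower, log2 change -1.11 ± 0.18, adjusted p = 0.000371). The other fall was in bHLH93 (Cha04g004870), needed for flowering in short days and named here after its values were seen, at 15.4, 27.8 and 22.6 CPM against 14.7, 12.4 and 12.4 CPM. High-temperature replicate 1 lay close to low-temperature replicate 1 (1.66-fold lower, log2 change -0.74 ± 0.20, adjusted p = 0.0151), and the call was lost without low-temperature replicates 2 (0.0799) or 3 (0.0759). This call was also lost in every limma fit to FPKM. The other 2 bHLH93 gene models, Cha09g004240 and Cha01g018060, were not called (log2 changes -0.29 and -0.30, edgeR adjusted p = 0.417 and 0.786). A pair of members carry the name cysteine proteinase inhibitor 12, which is no transcription factor, beside the domain, and neither was called.

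**Figure D3:**
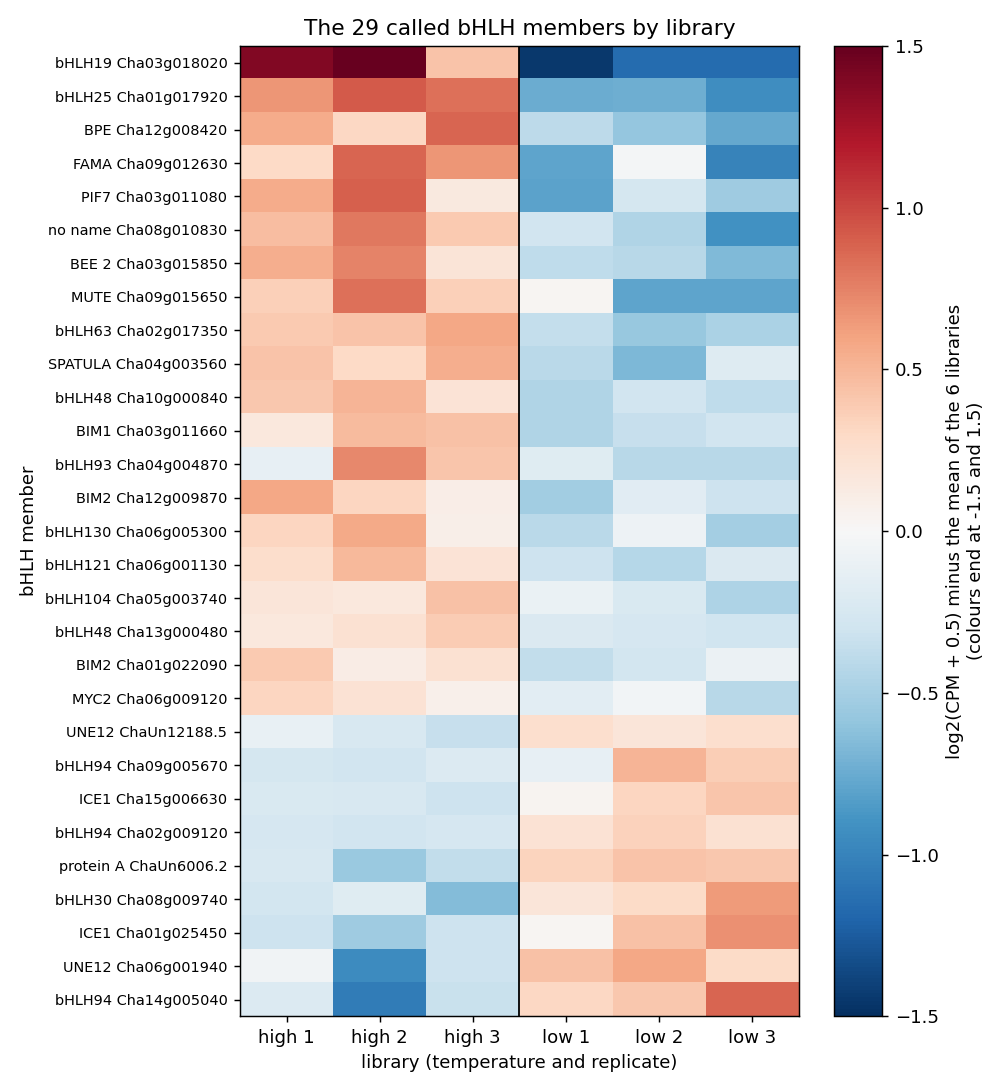
The 29 called bHLH members in each library, as log2(CPM + 0.5) minus the mean of the 6 libraries, from the largest fall at the top to the largest rise at the bottom. Red is above and blue below the mean, and the 3 columns left of the line are high-temperature libraries. The 20 members that fell are redder on the left, the 9 that rose are bluer, and low-temperature replicate 1 is the palest of the cold libraries for MUTE and for the ICE1 gene models.

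Levels of the members ranged widely. By mean deposited FPKM, 102 members reached 1 and 58 reached 10, and the median of the tested members was 12.1 FPKM. The 10 members with the most counts held 41.1% of all bHLH counts, and the first of them 9.30%. ILR3 (186 and 136 FPKM), UNE12 (136 FPKM), bHLH25 (118 FPKM) and bHLH94 (86.4 FPKM) led the order per length. The ILR3 and UNE12 gene models at 136 FPKM did not differ in mean level beyond their spread. Among members of 5 to 20 CPM, 11 of 45 (24.4%) were called lower, against 11% of all gene models at that level. In the range of 20 CPM or more the lower calls were 8 of 37 (21.6%) against 12.9%, and under 5 CPM they were 1 of 24 (4.17%) against 4.88%.

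**Figure D4:**
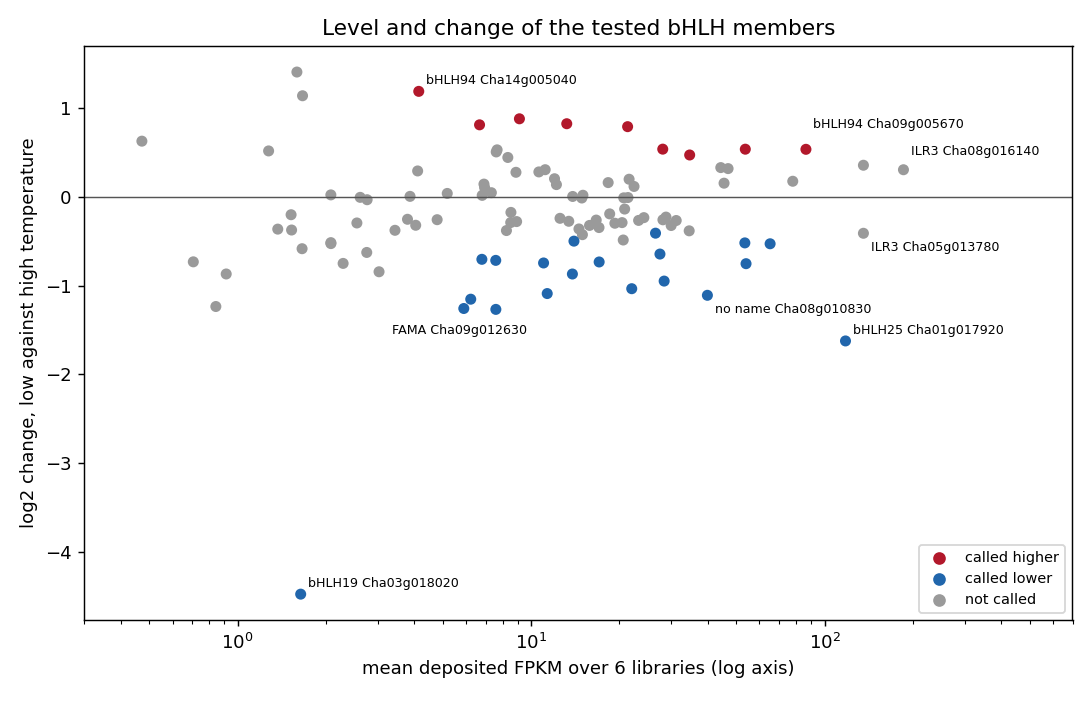
Mean deposited FPKM over the 6 libraries (log axis) against the log2 change, low against high temperature, of the 106 tested bHLH members. Called members, red for higher and blue for lower, occur from about the level of bHLH19 at the bottom left to bHLH25 at 118 FPKM, while the most abundant member, an ILR3 at 186 FPKM, was not called.

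Gene models of the same name did not always share the sign of their log2 change, but no name had gene models called in both directions. Many of the differing signs belong to uncalled gene models, for which the direction is uncertain. The 134 members share 65 protein names, and 7 have none. Among others, BIM1, bHLH25, bHLH30, bHLH121, ILR3, PRE6 and bHLH94 each had tested gene models on both sides of 0, whereas both bHLH48 gene models fell and all 3 ICE1 and all 4 UNE12 gene models had positive changes. Since the counting could split reads among near-identical copies, the split within such a name is uncertain, and sums over the name are given above for ILR3, ICE1 and bHLH94. A second domain, the MYC and MYB N-terminal domain PF14215, was present in 16 members, of which 13 were tested, 1 rose and 1 fell, with a median of -0.20. The 93 tested members without it included 8 that rose and 19 that fell, with a median of -0.26. Most members, 124, lie on the sequences numbered 1 to 15.

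The 28 untested members had at most 15 counts in any library, and 7 of them had none. They included most of the gene models named bHLH120 and bHLH140, both bHLH041 gene models, FIT, the anther members, HEC3, BEE 1 and BEE 3, and single gene models of names that were tested elsewhere, such as MYC2 and bHLH25. In a fit without the count filter, 1 of them was called, a member without a protein name (Cha15g004990), with 0, 0 and 0 counts in the warm and 12, 13 and 1 in the cold (edgeR adjusted p = 0.0153). ABORTED MICROSPORES (Cha06g000600) had 11, 9 and 4 counts against 2, 0 and 1, which do not overlap either, and was not called in that fit (edgeR adjusted p = 0.163).

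A further 58 gene models carry a bHLH protein name without the domain PF00010. Of 42 tested, 5 rose (11.9%, against 9.27% of all tested gene models) and 4 fell (9.52% against 9.65%), with a median of 0.09. With them the family would count 148 tested gene models, 38 called (14 higher and 24 lower) and a median of -0.15. The largest of the well-measured rises was bHLH143 (Cha04g005480), a relative of SAC51, at 62.5, 61.2 and 59.0 CPM in the warm and 103, 125 and 141 CPM in the cold, without overlap (log2 change 1.01 ± 0.14, adjusted p = 9.54e-05). A PRE6 locus outside the numbered gene models, for an atypical bHLH protein that promotes growth, fell from 55.0 ± 4.25 to 30.8 ± 2.47 CPM (SD, n = 3; log2 change -0.84 ± 0.14, edgeR adjusted p = 0.000411). A GLABRA 3 gene model (Cha06g008100) fell with a log2 change of -0.72 ± 0.15 (adjusted p = 0.00281). The next one (Cha06g008090), 86 bases further on the same strand, had a log2 change of -0.50 ± 0.16 (adjusted p = 0.0321), a call lost without high-temperature replicate 3 (0.0687) or low-temperature replicates 2 (0.159) or 3 (0.191). Whether these GLABRA 3 models are pieces of 1 gene was not tested, and they make up 2 of the 4 falls. The models of this paragraph were picked for naming after their values were seen.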

How the data were processed

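RNA was sequenced from young shoots in 3 high-temperature and 3 low-temperature libraries. The authors deposited 2 tables, 1 of raw counts and 1 of FPKM per gene model. The submitters' processing notes name R 4.1.0, DESeq2 1.20.0, featureCounts 1.5.0-p3, HISAT2 2.0.5, CASAVA 1.8.2 and fastp, without their roles. The genome build and strand setting are not stated in the sources used here, so overlapping and antisense genes cannot be told apart. Names and coordinates are those of the deposited tables, and "sequence 3" is the assembly sequence of that number. No sequence is printed, since no matching sequences were at hand, and bisulfite data were not analysed here.

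The test on the counts was the robust quasi-likelihood F test of edgeR 4.0.16 (R 4.3.3) with temperature as its single term, TMM factors and gene models kept by filterByExpr (minimum count 10), with Benjamini-Hochberg adjustment over 26767 gene models and a threshold of 0.05. Positive log2 changes mean higher at low temperature. The members, role groups and lists were chosen with earlier results of these data known. Named genes were, per role group, the 2 with the smallest p and the highest mean CPM, the 6 largest rises and 6 largest falls without overlap and with at least 1 CPM, all tested PIF, bHLH63, bHLH76 and iron-response members, and the gene with the smallest p of each partner list. All other genes named, partner, target and marker genes included, were chosen after their values were seen. The steps were tested on simulated data.

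Alternatives were other scalings (RLE, upper quartile, library totals), no count filter, a minimum count of 30, a replicate block, fits without each library in turn, DESeq2 1.42.0, and limma 3.58.1 on log2(FPKM + 1) or log2(FPKM + 0.1) with a mean FPKM of at least 0.5, the former also unfiltered, an adjusted p under 0.01 and other membership rules. Replicate pairs differed by more than sampling noise (mean chi-square 5.32 to 26.5 per gene), so none were merged.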

Additional observations from a re-analysis of the deposited data

How the results depend on the processing

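Of 29 member calls 13 were kept in every setting and 14 without any 1 library. The single-gene passages give mainly the libraries whose omission ended a call. Some of these calls were also lost under other scalings, the replicate block or limma. Leaving out 1 library gave 2606 to 5621 called gene models, 17 to 32 called members and a member median log2 change of -0.265 to -0.126. The unfiltered limma fit on log2(FPKM + 1) called 2867 gene models and 19 members, with a member median of -0.172. At an adjusted p under 0.01 they numbered 2423 and 17. With bHLH-named models added, the member median was -0.145, and without the cystatin and unnamed models, a choice made after seeing the data, 28 members were called. DESeq2 called 27 members, 9 higher and 18 lower, and library totals alone gave 28, 7 higher and 21 lower. No sign was seen that the replicate numbers pair the libraries (correlations of -0.0113, 0.0399 and -0.00939 for the same number), and not every library correlated best with its own number. With so few libraries these correlations cannot exclude pairing. With the replicate block, 4805 gene models and 26 members (8 higher, 18 lower) were called, with a member median of -0.26.

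Over 55 named genes and all settings there were 932 comparisons, of which 824 kept direction and side of the threshold, 74 lost the call, 18 gained one and 16 reversed. Those that reversed were uncalled genes. With 1 library left out, PIF3 Cha02g011370 ranged from -0.133 to 0.103, protein A Cha11g011440 from -0.014 to 0.356, bHLH30 Cha06g019390 from -0.047 to 0.197, PRE6 Cha06g017500 from -0.142 to 0.572 and bHLH121 Cha03g015350 from -0.222 to 0.233 in log2 change. In the limma fits the log2 change of PIF3 Cha02g011370 was 0.004, 0.005 and 0.004. For bHLH121 Cha03g015350 it was -0.008 with library totals and -0.000 with the replicate block. The cause of these shifts was not tested. Low counts limit what can be said of the 28 untested members.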
